A study of Caenorhabditis elegans with 3 samples.

Results

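The genes described here are the numbered nuclear hormone receptor genes of *Caenorhabditis elegans*, named *nhr* followed by a number. They were chosen by gene symbol alone, as probes whose single symbol in the array's annotation has that form, leaving out *nhr-23* and *nhr-25*. The rule took 246 probes for 236 genes, of 15184 named genes on the arrays, and 232 of the 236 had a value on every array. The study compared RNA of mid-L3 hermaphrodites, a larval stage in which the germline is still small, with a common reference RNA that the labels call wild-type and mixed, without saying what was mixed. There were 3 two-colour arrays, each carrying 1 of 3 separate mid-L3 preps beside that reference. The source names of the L3 RNA begin with TP01, and what it stands for is not given there. Nothing further on genotype, treatment or age is in the labels, and they do not say whether the preps were grown as separate cultures. A p-value here measures only how far these 3 preps spread, which may be technical.

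Nuclear hormone receptors are transcription factors with a zinc finger domain that binds DNA and a ligand-binding domain through which small lipophilic molecules can switch them. Nematodes carry an expanded set of them, most of it derived from an ancestor related to the vertebrate receptor HNF4, beside a small number of receptors with direct counterparts in insects and vertebrates. In the worm several act in the intestine as sensors of fat, vitamin B12, sterols and foreign compounds, and others act in molting, larval timing and organ formation.

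Every value below is a log2 ratio of the mid-L3 and reference channels, centred on the array's median. It is not a level, so ratios cannot be used to rank receptors by abundance. The labels do not state which channel is the numerator, and signs were kept as deposited. Of 14 oocyte and eggshell genes, whose products belong to the adult germline, 12 had negative ratios past the threshold and 0 positive ones in limma (0 at an unadjusted p under 0.05 either), with a median of -2.95. As mid-L3 hermaphrodites hold no mature oocytes, a ratio of mid-L3 over reference is likely, but the direction is not settled. Errors are SD over n = 3 preps, and a call is a Benjamini-Hochberg adjusted p under 0.05 in limma over all 19091 features. No spot intensity was used here, so a dim spot with a ratio near 0 could not be told from a bright one. RNA came from whole animals, so fewer cells of a type and less RNA per cell cannot be told apart.

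Most of the family stayed near a ratio of 0. Of 232 genes, 17 were positive past the threshold (7.33%) and 29 negative (12.5%), against 13.5% positive and 13.6% negative among all features, 27.1% in all. The negative share was thus near the background, and the positive share lay below it. The median log2 ratio of the members was -0.04, beside 0.01 for all features. By array, the members' medians were 0.0007, -0.11 and -0.07 in preps 1, 2 and 3. A mean of 2-fold or more in either direction was found for 15 members (6.47%), against 12.8% of all features, and 74.1% of members lay within 0.5 of 0, against 67.1%. The spread between preps was like that of the arrays as a whole, with a median SD of 0.30 for members and 0.29 for all features. Of the calls, 9 positive and 13 negative ones held under each of the 13 processing alternatives tried. Refits without prep 1, 2 or 3 gave 19, 19 and 17 negative calls in all, members called only in the refit included. Positive calls in these refits were 19, 12 and 14. Among all features the refits gave 9.82%, 11.3% and 9.51% negative and 11.6%, 9.12% and 10.7% positive.

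**Figure D1:**
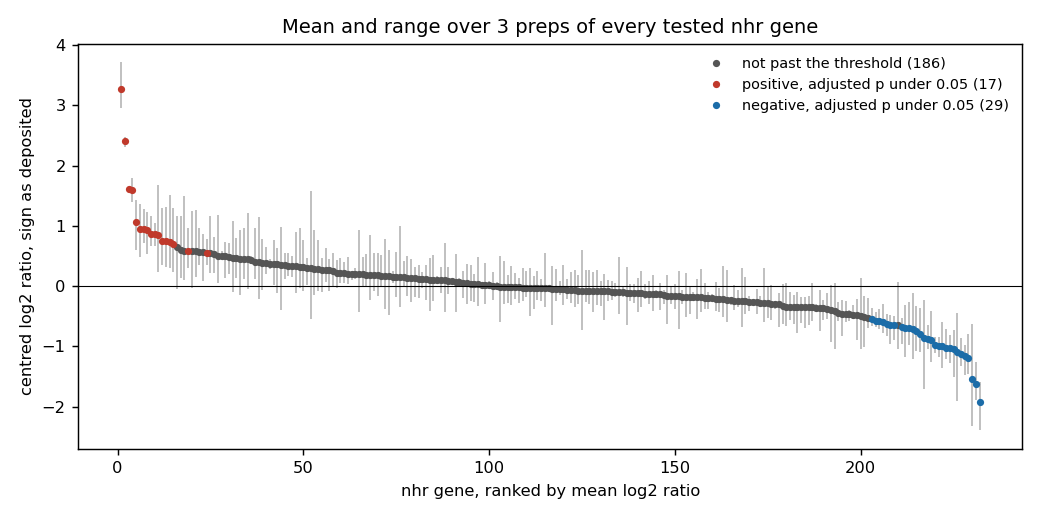
Centred log2 ratio, sign as deposited (vertical axis), of each of the 232 tested *nhr* genes ranked by its mean (horizontal axis). Points are means, grey lines run from the lowest to the highest of the 3 preps, and colour marks the 17 positive and 29 negative calls. The curve is flat in the middle, and 4 genes stand above the rest at the left end.

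The highest member was *nhr-73*, with log2 ratios of 3.71, 2.95 and 3.14 in preps 1, 2 and 3, a mean of 3.27 ± 0.40 and a limma adjusted p of 1.08e-06. It was followed by *nhr-244* at 2.31, 2.43 and 2.47 (mean 2.40 ± 0.08, adjusted p = 3.912e-06 in limma). Next came *nhr-113* at 1.60, 1.63 and 1.62, and *nhr-74* at 1.40, 1.79 and 1.62. In these 4 genes no prep came below 1.40, and the preps of *nhr-113* differed least, with an SD of 0.02. No role is given here for any of them. The step to the next member was wide: *nhr-8*, a relative of the sterol receptor gene *daf-12* that is known for cholesterol balance and resistance to toxins, was at 1.44, 1.14 and 0.61 (mean 1.06 ± 0.42).

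The other positive members named by rank were *nhr-68* at 0.95 ± 0.44, *nhr-80* at 0.94 ± 0.29, *nhr-125* at 0.94 ± 0.36, *nhr-121* at 0.86 ± 0.27 and *nhr-15* at 0.86 ± 0.19. They lay close together, and their order did not exceed their spread. *nhr-68* is known from the response to low vitamin B12, and *nhr-80* from fatty acid desaturation and the long life of animals without a germline. The call of *nhr-80* was lost without prep 3 (mean 0.78, adjusted p = 0.05707 in limma).

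The lowest member was *nhr-21*, at -2.39, -1.59 and -1.78 in preps 1, 2 and 3, with a mean of -1.92 ± 0.42 and a limma adjusted p of 4.594e-05. *nhr-18* was at -1.89, -1.26 and -1.71, with a mean of -1.62 ± 0.33. Both were below -1 in every prep. *nhr-57*, which is known to be induced by the hypoxia factor HIF-1, was at -1.67, -0.62 and -2.33, so that its mean of -1.54 ± 0.86 covers a wide range, with prep 2 nearest to 0. *nhr-260* was at -1.20 ± 0.36, *nhr-100* at -1.16 ± 0.28 and *nhr-76* at -1.12 ± 0.24. *nhr-76* is known for its part in the loss of intestinal fat under neural control. The remaining members among the 10 lowest were *nhr-19* at -1.09 ± 0.74, *nhr-105* at -1.04 ± 0.41, *nhr-17* at -1.03 ± 0.23 and *nhr-290* at -1.03 ± 0.28. Prep 1 carried the value of *nhr-19* (-1.91, against -0.45 and -0.92), and without prep 1 it was at -0.69 and its call was lost (adjusted p = 0.0758 in limma).

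**Figure D2:**
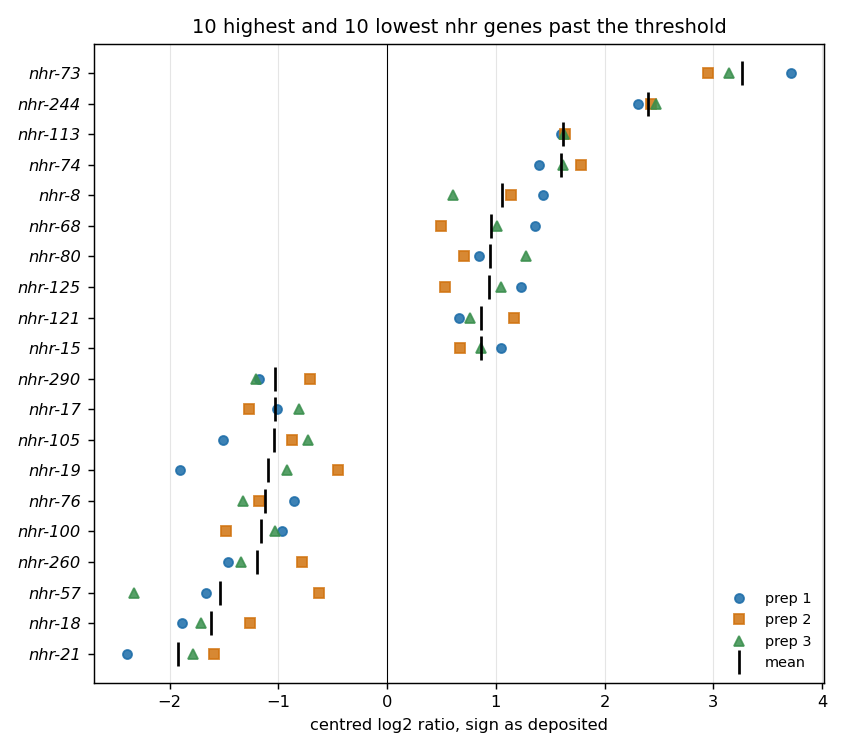
Centred log2 ratio, sign as deposited (horizontal axis), of the 10 highest and 10 lowest *nhr* genes past the threshold. Symbols are the 3 preps and black bars the means. *nhr-73* lies between 2.95 and 3.71 and *nhr-21* between -2.39 and -1.59, while *nhr-57* spreads from -2.33 to -0.62.

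The 7 positive members outside these ranks were smaller in size, from 0.56 for *nhr-54* to 0.84 for *nhr-70*, and all but *nhr-205* were highest in prep 2. *nhr-70* was at 0.61, 1.68 and 0.23, and *nhr-223* at 0.30, 1.51 and 0.38 in preps 1, 2 and 3, and neither passed when prep 2 was left out. Along the order of probes, which falls into 32 inferred sectors of 25 by 25, the first sector of every 4 had a prep 2 median of 0.34, against -0.10 elsewhere. Of the 17 positive members, 7 lay in those sectors, as did 86 of all 232 members. When each array was centred within sectors, 1 of the 7 calls in those sectors was left, that of *nhr-273* at 0.50 (adjusted p = 0.044 in limma), and 11 members were positive in all (4.74%, against 12.8% of all features). The call of *nhr-80* was among those lost, at 0.69 (adjusted p = 0.06205 in limma). The 4 highest members lay outside the first-of-4 sectors, and their sector-centred means were 3.37, 2.30, 1.74 and 1.65 for *nhr-73*, *nhr-244*, *nhr-113* and *nhr-74*. Negative members were 29 again, 28 of them in common.

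The place of the members in the genome was read from RefSeq genes of the WBcel235 assembly, where 230 of the 232 genes were found by gene identifier. Chromosome V held 145 of them (63%), against 25.4% of the other genes with a chromosome. Of these 145, 9 were positive and 16 negative, while among other chromosome V genes 12.4% were positive and 14% negative. On chromosome X, 4 of 21 members were negative and 0 positive in limma (1 at an unadjusted p under 0.05), while other X genes were negative in 9.57% and positive in 17.3%. On chromosome I, 4 of 23 were positive and 1 negative, against 12.6% and 20.6% of its other genes, and these 4 were the 4 highest members of the family. The medians by chromosome ran from -0.08 on X to 0.30 on III, the latter over 7 genes.

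**Figure D3:**
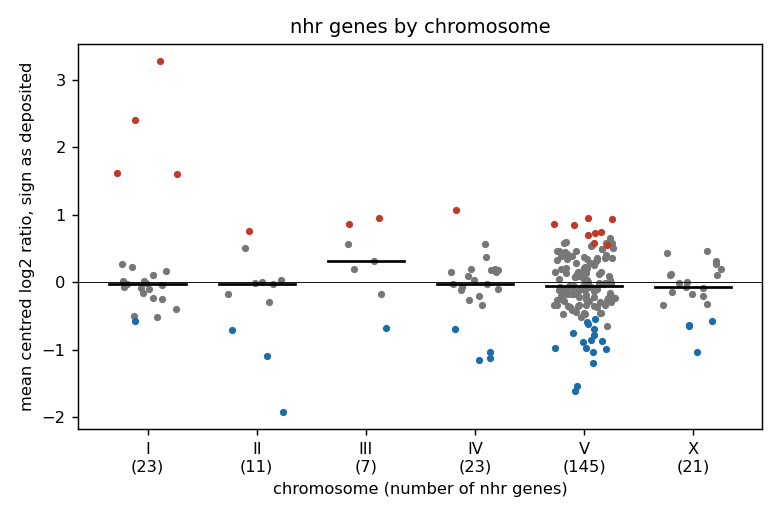
Mean centred log2 ratio, sign as deposited (vertical axis), of the *nhr* genes of each chromosome (horizontal axis, number of genes in brackets). Points are genes, red for positive and blue for negative calls, with random sideways placing, and black bars are medians. The 4 highest points are on chromosome I, and chromosome V holds 145 of the genes between -1.62 and 0.95.

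The 4 highest members were also neighbours. In gene order on chromosome I, *nhr-74* is followed directly by *nhr-73*, then after 3 genes by *nhr-244* and after 4 more by *nhr-113*. This stretch was noticed after its values were seen and has no test as a stretch. It holds 11 genes, all measured, of which 9 had positive ratios past the threshold. Among all features 13.5% were positive, and among chromosome I genes outside the family 12.6%. As the stretch was drawn around the 4 highest members, their 4 calls were fixed by that choice. Of its 6 genes other than receptors, 5 were positive. These 5 had means from 2.24 to 4.20, beside 1.60 to 3.27 for the 4 positive receptors. *ZK1025.3* was at 4.79, 4.46 and 3.34 in preps 1, 2 and 3, *ZK1025.2* at 4.26, 4.29 and 2.44, and *bah-1*, known for its effect on bacterial biofilm attaching to the worm's head, at 3.49, 3.47 and 2.48. *ZK1025.8* had a mean of 3.09 ± 1.09 and *gtnt-53* of 2.24 ± 0.71. In all 5 of these prep 3 was the lowest array, which it was in none of the 4 receptors.

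The exceptions inside the stretch were *nhr-259*, at 0.06, 0.13 and 0.46, and *C27C7.1*, at -0.59, 1.27 and 0.53, which lie side by side. Of the 5 genes on either side of the stretch, 6 were measured and 0 passed the threshold in limma, with 1 at an unadjusted p under 0.05, and their means ran from -0.67 for *K08C9.2* to 0.43 for *K08C9.1*. The probes of the 11 genes came from 4 inferred sectors of the array, and most of them from sectors 2 and 10. *ZK1025.2*, *nhr-244*, *gtnt-53* and *ZK1025.8* lay in sector 2, and *nhr-259*, *ZK1025.3*, *bah-1* and *nhr-113* in sector 10. The part of spot position in these ratios was not tested. The 9 calls held under every alternative tried. Probe sequences were not used here, and whether probes of related genes share targets was not tested.

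**Figure D4:**
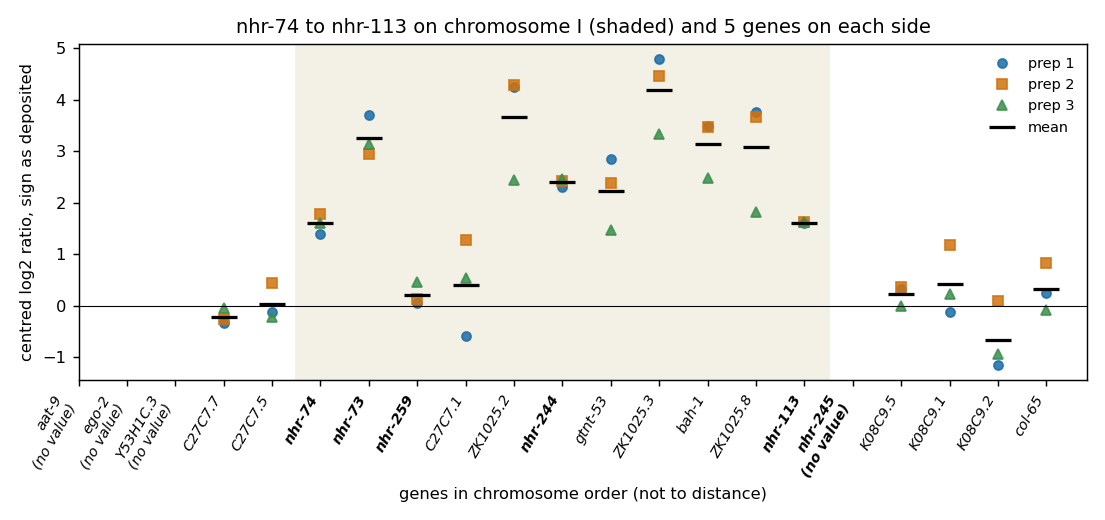
Centred log2 ratio, sign as deposited (vertical axis), of the genes from *nhr-74* to *nhr-113* (shaded) and 5 on each side, in chromosome order and not to distance (horizontal axis). Symbols are the 3 preps, black bars the means, and receptor genes are in bold. In the shaded stretch 9 of 11 genes have means from 1.60 to 4.20, while the measured genes outside it lie between -0.67 and 0.43.

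The RefSeq order, in which genes were found by symbol, holds 48 runs of adjacent *nhr* genes, 35 of them on chromosome V and the longest of 9 genes. Of 69 adjacent pairs with both genes measured, 55 had no call, 12 had a call in 1 gene, and 1 pair, *nhr-74* and *nhr-73*, was positive in both. With 7.33% of members positive and 12.5% negative, few shared calls could arise, so nothing is read from this count. In 1 pair on chromosome II the calls were opposite, with *nhr-109* at -0.70 ± 0.56 and *nhr-273* at 0.75 ± 0.49. The former was lost without prep 1 or prep 3 and the latter without prep 2. Of all 232 members, 130 had means below 0. In the run from *nhr-56* to *nhr-96* on chromosome V, picked after its values were seen, 6 of 7 measured genes did, with a median of -0.45. There *nhr-18* alone passed, and *nhr-103* next to it was at -0.98, 0.07 and -1.04. The run from *nhr-206* to *nhr-136* had a median of -0.23, with *nhr-206* at -0.98 ± 0.17 and the other 6 not past the threshold.

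Receptors on a list for metabolism, among them those of fat, vitamins and sterols, were called in both directions. The list also holds *nhr-57*, *nhr-31* and *nhr-14*, described here by hypoxia, the excretory cell and iron uptake. Of 14 measured, 3 were positive (*nhr-8*, *nhr-68* and *nhr-80*) and 4 negative (*nhr-10*, *nhr-57*, *nhr-69* and *nhr-76*), with a median of -0.16. Calls in both directions are also what all features show, at 13.5% and 13.6%. *nhr-49*, the receptor that drives fatty acid desaturation and the breakdown of fat in fasting, was at -0.22, 0.08 and -0.13 and did not pass. Its known partners gave different values. *nhr-80* was positive, as above, *nhr-66* was at -0.26 ± 0.04 and *nhr-13* at -0.22, 1.15 and 0.27, with neither of the last pair past the threshold.

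The pair that is known to activate the propionate shunt when vitamin B12 is low had opposite signs. *nhr-68* was at 1.36, 0.49 and 1.01 in preps 1, 2 and 3, and *nhr-10* at -0.55, -0.97 and -0.53, so their arrays did not overlap. The call of *nhr-10* (-0.68 ± 0.25) was lost without prep 2 (adjusted p = 0.07388) and without prep 3 (0.06493, both in limma). *nhr-69*, an HNF4 relative, was at -0.58 ± 0.18, and its call was lost when any prep was left out, with limma adjusted p of 0.2169, 0.09002 and 0.1067 without preps 1, 2 and 3. The remaining members of this group, none of them past the threshold, were *nhr-31*, which acts on proton pump genes of the excretory cell, at 0.56 ± 0.42, *nhr-45* at 0.43 ± 0.07 (past the threshold with centring within sectors, at a limma adjusted p of 0.04004, and with array weights), *nhr-14*, of intestinal iron uptake, at -0.34 ± 0.36, and *nhr-62*, of the response to dietary restriction, at -0.24 ± 0.22. *nhr-31* passed when prep 2 was left out, at 0.80 (adjusted p = 0.02658 in limma), and with array weights, at 0.73 (adjusted p = 0.005948). *nhr-86* and *nhr-114* were not analysed here.

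Of 9 measured receptors with direct counterparts in other animals, *nhr-8* was positive, *nhr-69* negative and 7 passed in neither direction, beside 27.1% of all features that passed in either. *nhr-67*, the counterpart of the fly gene tailless, which acts in the anchor cell of the gonad, was at 0.06, 0.10 and 0.10. *nhr-85*, the counterpart of the fly gene E75, which takes part in larval timing, was at 0.61, -0.48 and 0.36, with prep 2 on the other side of 0, and its 2 probes had means of 0.26 and 0.07. *nhr-41*, the counterpart of the fly gene DHR78, also changed sign between preps, at 0.59, -0.73 and -0.09. *nhr-6*, of the NR4A class and needed for the spermatheca, was at 0.39, 0.96 and 0.36, just short of the threshold (mean 0.57 ± 0.34, adjusted p = 0.05284 in limma). *nhr-64*, another HNF4 relative, was at -0.52 ± 0.28 (past the threshold with centring within sectors, at -0.64 and a limma adjusted p of 0.03501), *nhr-48*, a relative of *nhr-8*, at 0.20 ± 0.09, and *nhr-111*, of the class of tailless, at 0.06 ± 0.23.

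Of 7 receptors known from development, which share *nhr-6*, *nhr-41*, *nhr-67* and *nhr-85* with the group just described, 0 passed in limma and 1, *nhr-6*, had an unadjusted p under 0.05. *nhr-2*, active in the early embryo, was at -0.59, 0.13 and -1.04. It passed only when prep 2 was left out or under array weights, at -0.82 in the former (adjusted p = 0.03743 in limma). *nhr-40*, of early muscle and epidermis formation, was at 0.11 ± 0.30, and *nhr-60*, of the seam cells, at 0.20 ± 0.09. The 208 members in none of these lists counted 14 positive and 25 negative genes, or 18.8% called in either direction, against 7 of the 24 in the lists and 27.1% of all features.

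The member with the largest spread was *nhr-150*, at -0.55, 1.59 and -0.13, and that with the smallest was *nhr-104*, at -0.03, -0.03 and -0.04. Beside the threshold lay *nhr-205* (0.58 ± 0.34, adjusted p = 0.04908) and *nhr-90* (-0.55 ± 0.16, adjusted p = 0.04732) on the inner side, and *nhr-6* and *nhr-124* (0.66 ± 0.63, adjusted p = 0.06119, all in limma) on the outer. *nhr-205* and *nhr-90* lost their calls under several alternatives, among them leaving out prep 1 or prep 3. The size of a mean thus did not set the call, since *nhr-124* was farther from 0 than *nhr-205* but more variable.

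Genes known to be controlled by members of the family were read from lists drawn up with earlier results of these data known. Beside each list count stand 13.5% positive and 13.6% negative calls among all features. The propionate shunt breaks down propionate when the vitamin B12 route is short, under *nhr-10* and *nhr-68*. Of its 5 genes 4 were positive and 0 negative in limma (0 at an unadjusted p under 0.05), with a median of 2.18. *acdh-1*, the acyl-CoA dehydrogenase of the first step, was at 3.23, 3.71 and 4.10, with a mean of 3.68 ± 0.44. *ech-6* was at 2.37 ± 0.39, *hphd-1* at 2.18 ± 0.18 and *hach-1* at 1.69 ± 0.41. *alh-8*, of the last step, was at 0.00, 1.25 and -0.05 and did not pass.

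Genes of the methionine and S-adenosylmethionine cycle, which *nhr-114* is known to activate, were positive as well. Of 8 genes 7 were positive and 0 negative in limma (0 at an unadjusted p under 0.05), with a median of 1.84. The highest was *sams-1*, the S-adenosylmethionine synthetase gene, at 2.91, 3.50 and 3.04, with a mean of 3.15 ± 0.31. The folate transporter gene *folt-2* was at 2.41 ± 0.63, *mthf-1* at 2.34 ± 0.55 and *ahcy-1* at 1.87 ± 0.27. *metr-1*, for methionine synthase, was at 1.81 ± 0.59, *mel-32* at 1.77 ± 0.36 and *pmt-2*, of phosphatidylcholine synthesis, at 1.45 ± 0.35. *mtrr-1*, for the reductase that keeps methionine synthase active, was at 0.16 ± 0.29.

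Targets of NHR-49 had negative ratios. Of 7 measured, 5 were negative and 0 positive in limma (0 at an unadjusted p under 0.05), with a median of -1.12, while *nhr-49* itself lay at -0.09 ± 0.16. *acs-2*, an acyl-CoA synthetase gene of mitochondrial fat breakdown, was at -4.41, -3.81 and -2.81, with a mean of -3.68 ± 0.81. *hacd-1* was at -1.80 ± 0.69, *icl-1*, of the glyoxylate cycle, at -1.14 ± 0.45, and the desaturase gene *fat-7* at -1.12 ± 0.25. The desaturase gene *fat-5* was at -0.75, -0.13 and -1.52, and its call was lost without prep 3 (-0.44, adjusted p = 0.3762) and with centring within sectors (-0.81, adjusted p = 0.06942, both in limma). *fmo-2* was at -0.31 ± 0.18 and *ech-1.1* at 0.46 ± 0.45.

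**Figure D5:**
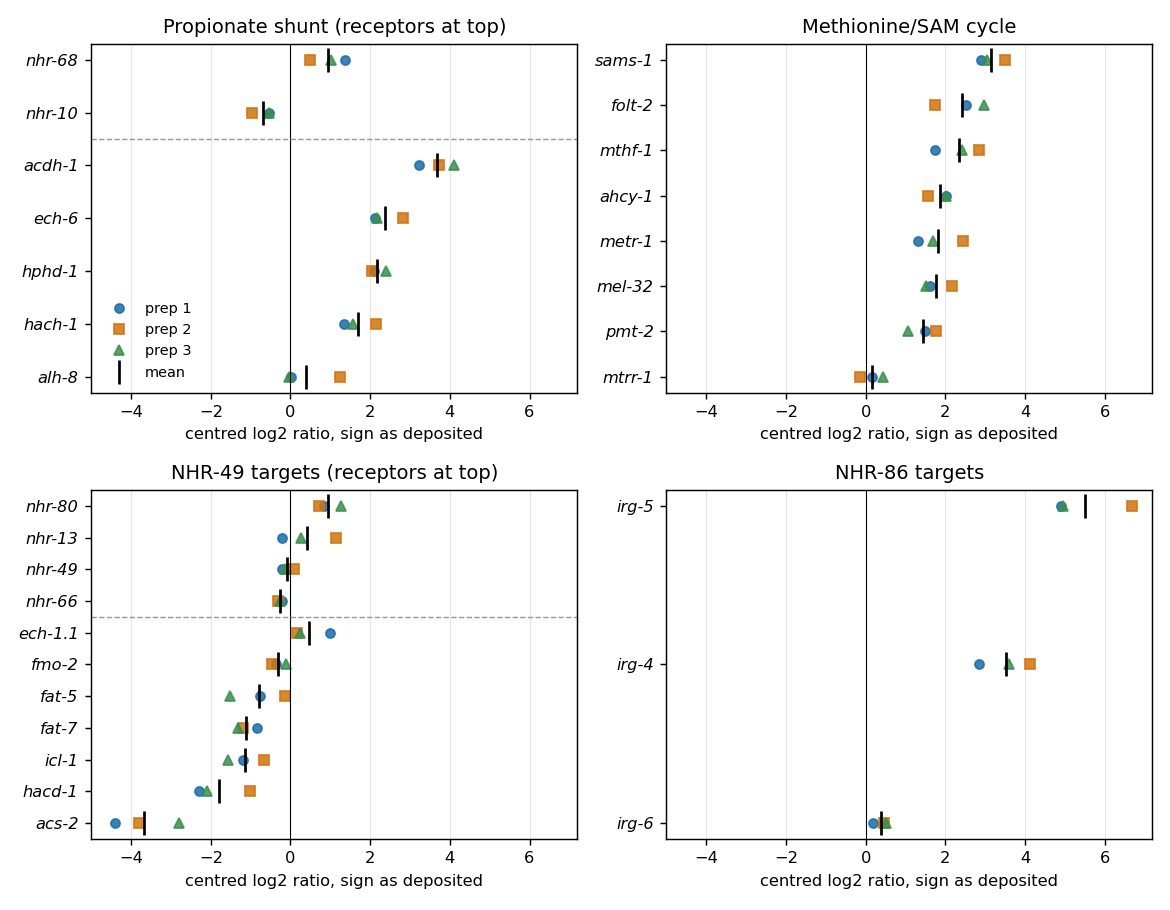
Centred log2 ratio, sign as deposited (horizontal axis), of target genes in 4 panels, with the measured receptors above the dashed line where there are any. Symbols are the 3 preps and black bars the means. The shunt and methionine genes lie to the right of 0 except *alh-8* and *mtrr-1*, whose preps fall on both sides of it, the NHR-49 targets other than *ech-1.1* lie to the left with *acs-2* at -3.68, and *irg-5* reaches 6.68 in prep 2.

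Of the genes known to respond to bacterial phenazines through NHR-86, *irg-4* was at 2.84, 4.14 and 3.60 and *irg-5* at 4.89, 6.68 and 4.97, while *irg-6* was at 0.38 ± 0.16 and did not pass. Many of the targets above are used in the intestine, and intestinal markers were positive too. Of 9 such markers 6 were positive and 0 negative in limma (0 at an unadjusted p under 0.05), with medians of 0.98, 1.52 and 1.06 in preps 1, 2 and 3 and means from 0.07 for *mtl-2* to 2.49 for *act-5*. Their part in the ratios of the targets was not tested.

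Of 7 receptor genes outside the numbered set 1 was called, beside 27.1% of all features called in either direction. *nhr-23*, which drives molting, was positive at 0.68, 1.64 and 1.65, and 6 did not pass. *daf-12*, the receptor of dafachronic acids, was at 0.53 ± 0.22, short of the threshold (adjusted p = 0.05842 in limma) except with centring within sectors (0.58, adjusted p = 0.03156) or with array weights. *nhr-25* was at 0.41 ± 0.32 and *odr-7*, of a pair of olfactory neurons, at 0.43 ± 0.30. *unc-55*, *sex-1* and *fax-1* lay between -0.09 and 0.19.

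Of 9 coregulator genes 2 were positive and 0 negative in limma (0 at an unadjusted p under 0.05). Among all features 13.5% were positive and 13.6% negative. *din-1*, for the corepressor of DAF-12, was at 0.96 ± 0.37, and *dpy-22*, a Mediator subunit gene, at 0.79 ± 0.14, the latter lost without prep 1 (adjusted p = 0.05279) or prep 3 (0.06238). *mdt-15*, the Mediator subunit that works with NHR-49, was at -0.02, 0.69 and 0.41 and did not pass. *cdk-8*, at -0.43 ± 0.43, passed with centring within sectors (-0.68, adjusted p = 0.01828 in limma). *cbp-1*, *gei-8*, *let-19*, *cic-1* and *sop-3* lay between -0.13 and 0.46.

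Beside *nhr-85*, 2 of 4 partners in larval timing were positive, *lin-42* and *lin-29*, at 1.97, 1.36 and 1.03 and at 1.82, 1.23 and 0.49 in preps 1, 2 and 3. The call of *lin-29* was lost without prep 2 (adjusted p = 0.06912 in limma). *blmp-1* was at 0.27 ± 0.21 and *lin-14* at -0.0015 ± 0.39. Beside *nhr-67*, of 5 genes of the anchor cell network *hlh-2* was at -0.94 ± 0.33 and *lin-3*, which encodes the EGF signal to the vulva, at -0.96 ± 0.41, both negative past the threshold. *egl-43*, *fos-1* and *cki-1* did not pass, at -0.39, 0.18 and -0.56. Beside these counts, 13.5% of all features were positive and 13.6% negative.

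Marker lists of other tissues describe the whole animals, and their counts stand beside 13.5% positive and 13.6% negative calls among all features. Among hypodermal markers 4 of 7 were positive, among nervous system markers 1 of 6 was negative, and among male markers 0 of 3 passed in limma (0 at an unadjusted p under 0.05). Of 6 sperm genes 3 were negative, as were 29 of 30 major sperm protein genes. Prep 1 lacked a value at 372 of 20000 probes, prep 2 at 126 and prep 3 at 137.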

How the data were processed

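Per the labels, each of 3 two-colour arrays held reference RNA in channel 1 and mid-L3 RNA in channel 2. The authors deposited 1 log2 ratio per probe and array. How the arrays were scanned, corrected and normalized, and the numerator, is not given in the sources used. Base 2 was read from the values: raised as powers of 2, they gave whole thousandths (within 0.001) for 97.03% to 98.33% of values, against at most 0.4025% with base e. Deposited medians were 0.02715, -0.06643 and 0.03281.

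Each array was centred on its median over all probes. Probes with a value on all 3 arrays were kept, and probes of a gene were averaged, which concerned 7 members. Members were chosen by the annotation's symbols. Genes are printed under symbols updated through gene identifiers with RefSeq (WBcel235), matching 15569 of 15655 one-gene probes. The fit of each mean against 0 used limma 3.58.1 under R 4.3.3 (intercept only, eBayes, two-sided), adjusted by Benjamini-Hochberg over 19091 features. The moderated variance rested on 9.23 prior and 2 residual degrees of freedom. The test leaves out the reference's spread, and the number of arrays limits its precision. Figures used matplotlib 3.10.9 in Python 3.11.15.

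On simulated data for this comparison (19091 features), 100 of 100 features changed by 2 and 82 of 100 changed by -1 were recovered, with 13 false among 195 calls. The simulated noise was independent between features and arrays, without sector or array bias, and few features were changed. These counts therefore do not give the share of false calls in the real data.

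Members, gene lists, tests and alternatives were chosen with earlier results of these data known. Genes named were the 10 highest and 10 lowest called members with a single sign on all arrays, measured members of the role lists, genes of the pathway lists, the largest and smallest SD and the genes beside the threshold. Others, namely the smaller calls, the neighbours and the chromosome I stretch, were chosen after their values were seen. Lists are given by counts and medians, with no set test. Alternatives were 3 other centrings, scaling, at least 2 arrays, single probes, choosing members by updated symbols, robust moderation, array weights, a minimum of 1.2-fold and leaving out each prep. The array titles carry a different date for each array, so date and prep cannot be told apart.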

Additional observations from a re-analysis of the deposited data

How the results depend on the processing

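Of the 46 called members, 22 kept their calls under all 13 alternatives, of which choosing members by updated symbols left the members, and so every value, as they were. The positive members, 17 as reported, numbered 10 with centring on the density peak, 11 with centring within sectors and 10 with a minimum of 1.2-fold, and from 12 to 19 when a prep was left out. The negative members, 29 as reported, numbered 16 with centring on the density peak and 15 with a minimum of 1.2-fold. Without preps 1, 2 and 3 they numbered 19, 19 and 17, from fewer arrays. Calls among all features fell too, from 13.5% positive and 13.6% negative as reported. Without preps 1, 2 and 3 they were 11.6%, 9.12% and 10.7% positive and 9.82%, 11.3% and 9.51% negative. With a minimum of 1.2-fold they were 8.41% positive and 8.51% negative. The minimum of 1.2-fold is a stricter test by construction. The other causes were not tested. The density peak also lowered the calls among all features, to 9.43% positive and 8.5% negative. The members' median ran from -0.06 to 0.01 over the alternatives, and no named gene changed sign with a call. The counts for the propionate shunt (4), the methionine cycle (7) and the chromosome I stretch (9, or 10 without prep 1) held, and the NHR-49 targets numbered 4 or 5. The alternatives for the stretch were applied after seeing the data. No paired analysis was possible because there is 1 group. Signal over background was not used here.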

Other observations

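RefSeq classes 10 of the tested members as pseudogenes. In limma 0 of them passed the threshold, with 2 at an unadjusted p under 0.05, beside 13.5% positive and 13.6% negative calls among all features, and their means lay between -0.46 for *nhr-83* and 0.49 for *nhr-250*. The 4 members without a value on every array were *nhr-180*, *nhr-185*, *nhr-212* and *nhr-12*, all on chromosome V. *nhr-12* was at -1.51 and -0.57 in preps 1 and 2, and *nhr-212* at -0.90 and -0.67 in preps 2 and 3. Among members averaged over 2 probes, the means of the probes differed most for *nhr-89*, at 0.36 and -0.16. Of probes listed for a pair of receptor genes, which name no single member, that for *nhr-261* and *nhr-257* had a mean of -0.18 and that for *nhr-286* and *nhr-135* of -0.28.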
